A study of Bos taurus with 16 samples.

Results

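The genes described here make, inactivate or sense prostaglandins, the lipid signals through which the bovine uterus controls inflammation, luteolysis and the postpartum return of the cycle. The 10 genes were PTGS1, PTGS2, PTGES, PTGES2, PTGES3, AKR1B1, HPGD, PTGER2, PTGER4 and PTGFR. Every array probe that was not a control and whose gene name was one of these symbols was taken. This gave 29 of 46615 probes on the array. AKR1B1 had 5 probes, 6 genes had 3 and 3 genes had 2. None of the 10 genes codes for a transporter, so the transporters SLCO2A1 and ABCC4 are given with the wider pathway.

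Circulating white blood cells (WBC) and endometrial biopsies came from 8 multiparous Holstein cows between 45 and 55 days post-partum. Of these, 4 had subclinical endometritis (SCE), an inflammation of the uterine lining without outward signs (cows 718, 833, 836 and 846), and 4 were healthy (cows 841, 850, 877 and 883). Every animal was sampled in both tissues, which made 16 arrays, 1 per sample, and the labels name no other treatment. The WBC RNA came from jugular blood drawn into RNA-stabilising tubes, and the biopsy was a piece of mixed tissue. The cows were in the luteal or the follicular phase. By the study's account most of the SCE cows were luteal, whereas the healthy cows were split evenly between the phases. The phase of each cow is not given in the labels, and its part in any result was not tested.

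The 8 blood arrays shared a slide, as did the 8 biopsy arrays, and therefore an effect of slide and an effect of tissue cannot be told apart. Values are log2 normalised intensities. They give the level of 1 probe across arrays and do not rank different probes or genes against each other. Differences are SCE minus healthy or endometrium minus WBC on the log2 scale. They were tested with TREAT, an option of limma that asks whether a change exceeds a set fold, here 1.2-fold, with adjustment over all probes. Fewer cells of a type and less RNA per cell cannot be told apart in either tissue.

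In the pathway, PTGS1 and PTGS2 (cyclooxygenases) turn arachidonic acid into prostaglandin H. Terminal synthases then turn this into prostaglandin E (PTGES, PTGES2, and PTGES3, which is also a co-chaperone of HSP90) or prostaglandin F (AKR1B1, an aldose reductase that acts as a prostaglandin F synthase in bovine endometrium). HPGD oxidises both products to inactive forms. PTGER2 and PTGER4 are receptors of prostaglandin E that raise cyclic AMP, and PTGFR is the receptor of prostaglandin F that mediates luteolysis in the ovary.

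The labelled tissues were checked against marker genes. Of all probes, 31.2% were higher in WBC and 22.7% in the endometrium. All 3 general leukocyte, 7 of 7 neutrophil, 6 of 6 T cell and 4 of 4 measured platelet markers were higher in WBC. So were 3 of 3 measured B cell, 4 of 5 cytotoxic cell and 4 of 6 monocyte and macrophage markers. MRC1, of the monocyte and macrophage list, was higher in the endometrium (1.19). Of the 4 ciliated epithelium markers, 0 were called in either direction. In the endometrium, 4 of 5 endothelial, 4 of 5 smooth muscle and 4 of 7 stromal markers were higher, while 2 of the 7 stromal markers, VIM (-0.67) and DCN (-0.60), were higher in WBC. The epithelial list was divided, with EPCAM, KRT18 and CDH1 higher in the endometrium and KRT8, KRT19 and CLDN4 higher in WBC. Both arrays of SCE cow 833 stood apart. Its endometrium array had a median spot signal above background of 79, against 248 to 316 on the others, and it correlated less well with the arrays of its tissue (median r = 0.94, against 0.973 to 0.979 for the rest). Its WBC array was the brightest of that slide, at 202.5 against 83 to 132. Results that rest on this cow are given with and without it. Of the 29 probes, 18 in the endometrium and 17 in WBC were well above background on all 8 arrays, and 6 spot values of the members were left out as outliers.

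The endometrium of SCE and healthy cows did not differ in any of the 10 genes by the tests used. None of the 29 probes passed TREAT without adjustment, where 0.453% of all 46598 probes passed. After adjustment 0 probes passed, of the members and of the whole array. Without cow 833 the count of members was also 0, beside 0.539% of all probes. Limma with no fold threshold also called 0 of 29 without adjustment, against 2.01% of all probes. The smallest TREAT p of a member was 0.22, with an adjusted p of 1. In no member did the 4 SCE cows lie wholly apart from the 4 healthy cows (0 of 28 probes that could be compared, against 1.63% of all probes). The differences were above 0 for 13 of 29 probes, beside 49.1% of all probes, and their median was -0.05. All 29 of the 95% intervals included 0, and only 10 of them lay within 1 of 0, so for the other probes the intervals allow changes of over 2-fold.

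PTGS2, the inducible cyclooxygenase, had the largest difference in the endometrium. The probe at base 3314 of its transcript read 13.80, 8.60, 9.30 and 8.40 in SCE cows 718, 833, 836 and 846. It read 7.14, 10.61, 6.99 and 8.32 in healthy cows 841, 850, 877 and 883. The groups overlapped, and 1 SCE cow, 718, lay far above the rest. The difference was 1.76 (95% interval -1.21 to 4.72, adjusted p = 1; exact permutation test, p = 0.29). The probe at base 597 differed by 0.57 (95% interval -0.79 to 1.93), with 1 array of each group well above background, and that at base 807 was well above background only in cow 718.

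PTGS1, the constitutive cyclooxygenase, differed by 0.89 at the probe at base 2535 (95% interval -0.92 to 2.71). This rested on cow 833, at 11.90, while the other 7 endometrium arrays lay between 7.73 and 9.20. Without that cow the difference was 0.02. The level of this probe had r = -0.937 with the brightness of the endometrium arrays over 8 arrays. Cow 833 had both the highest level and the dimmest array, at 79 against 248 to 316. No value of this correlation without that cow was computed. The summed level of the endothelial markers was also highest on the array of cow 833, at 16.09, against 13.01 to 14.01 on the other 7. The part of array quality and of endothelial cells in this value was not tested.

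None of the terminal synthases passed. PTGES, the microsomal prostaglandin E synthase, differed by -0.12 (95% interval -1.34 to 1.1) at base 623, its brightest probe over all 16 arrays, and by -0.47 and -0.31 at its pair of probes at base 797. PTGES2 differed by 0.02 (95% interval -0.58 to 0.63) and PTGES3 by 0.12 (95% interval -0.31 to 0.54). AKR1B1 was lower in SCE at all 5 probes, by -0.25 at the brightest (95% interval -2.51 to 2.00), but without cow 833 the same probe was 0.41 higher. Healthy cows spanned 14.13 to 17.90 and SCE cows 13.53 to 17.60 at that probe, so the groups covered nearly the same range.

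HPGD, which inactivates prostaglandins, read 13.15, 9.49, 12.66 and 12.20 in the SCE endometrium and 7.83, 10.84, 10.94 and 14.26 in the healthy endometrium. The lowest and the highest cow were both healthy. The difference was 0.91 (95% interval -2.11 to 3.93; exact permutation test, p = 0.57). Among the receptors, PTGER4 differed by -0.57 (95% interval -1.64 to 0.50) and PTGFR by 0.32 (95% interval -0.16 to 0.79). The probes of PTGER2 differed in opposite directions, by -0.51 at base 1979 (95% interval -1.46 to 0.44) and by 0.18 at base 620, the latter with only 1 healthy array because 3 spots were marked as outliers. PTGFR was not well above background on any healthy array and on 2 of 4 SCE arrays at its brightest probe.

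Leukocyte markers were compared in the same endometrium arrays. The 34 measured markers were of platelets and of leukocytes (in general, and of neutrophils, monocytes and macrophages, T cells, B cells and cytotoxic cells). Of these, 1 passed TREAT without adjustment, where 0.453% of all probes passed. It was the neutrophil gene S100A8 (1.60 higher, adjusted p = 1). The summed level of the neutrophil list ranged from 11.15 to 13.01 in SCE and from 10.86 to 11.52 in healthy endometrium. Its part in the values above was not tested.

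**Figure D1:**
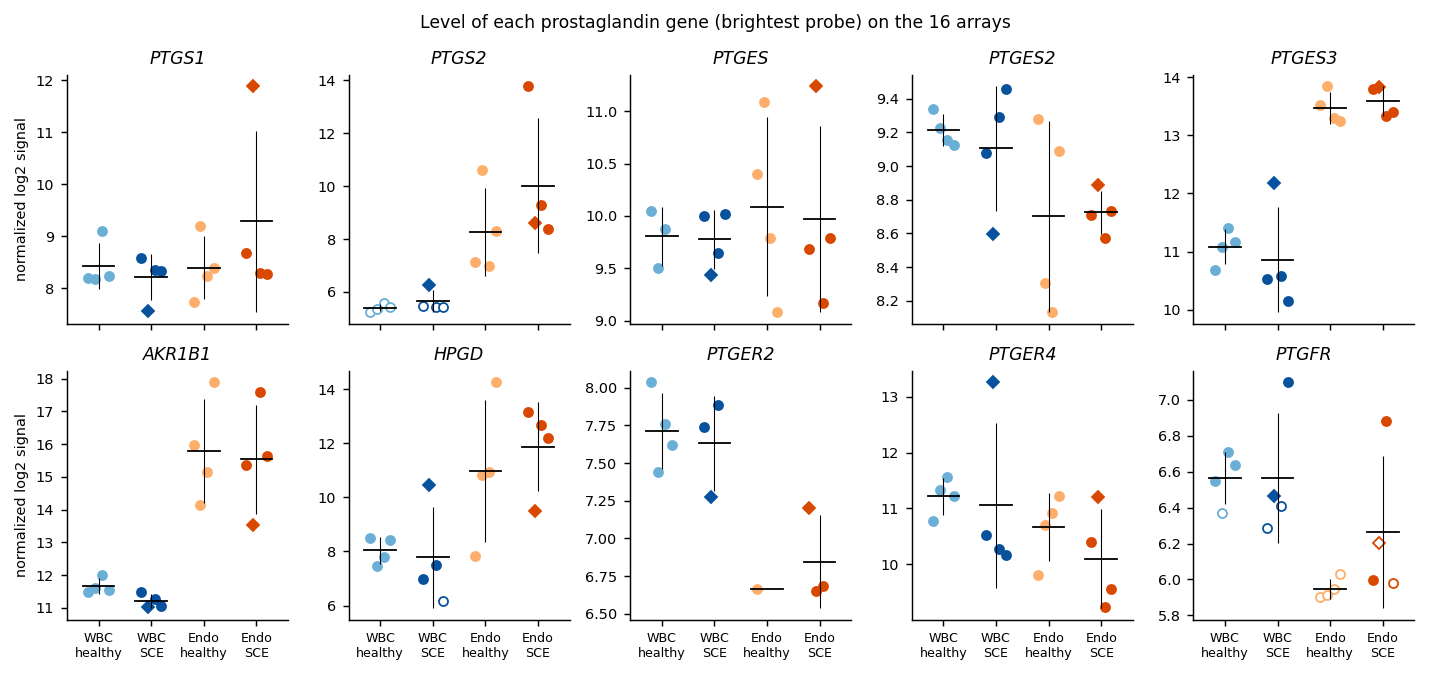
Levels of the brightest probe of each of the 10 genes (log2 normalised intensity, vertical axis) in healthy and SCE cows, for WBC and endometrium, 4 cows per group. Lines give the mean ± SD, diamonds mark cow 833 and open symbols mark arrays not well above background. SCE and healthy cows overlapped in every panel, whereas AKR1B1, PTGS2 and PTGES3 lay apart between tissues, as did PTGER2 on the arrays where it was kept.

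In WBC, 1 of the 29 probes passed TREAT without adjustment, where 0.122% of all 46609 probes passed (0.0408% lower in SCE), and 0 passed after adjustment. The probe belonged to AKR1B1 and was lower in SCE cows. Limma with no fold threshold called 3 of 29 probes without adjustment, all of AKR1B1, against 1.44% of all probes. The groups lay wholly apart for 1 of 27 probes, against 1.3% of all probes, and 10 of 29 differences were above 0, against 48.1% of all probes.

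The 5 probes of AKR1B1 start at bases 23, 599, 1118, 1291 and 1296, with base 23 counted in another transcript record than the others. Those at bases 1291 and 1296 share 41 bases in a row and so are close to repeats of 1 measurement. The probe at base 599 is shown because it lies away from this end of the transcript (chr4:101757615-101757674 of the HGSC Btau_3.1 build, minus strand).
AKR1B1 base 599: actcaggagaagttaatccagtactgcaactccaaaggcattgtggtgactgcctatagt
It followed the downstream probes closely in the endometrium, as given further on, but differed less with SCE in WBC.

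At base 1296, WBC of SCE cows 718, 833, 836 and 846 read 10.97, 10.72, 11.10 and 10.86. WBC of healthy cows 841, 850, 877 and 883 read 11.41, 11.35, 11.75 and 11.50. Every SCE cow lay below every healthy cow. The difference was -0.59 ± 0.14 (SE; 95% interval -0.91 to -0.27; TREAT p = 0.023, adjusted p = 1; exact permutation test, p = 0.029, the smallest that 4 cows against 4 can give). It was -0.53 and -0.65 in the 2 rows of the slide, each of which held 2 SCE and 2 healthy cows. Over the 8 WBC arrays the level had r = -0.127 with array brightness. Cow 833 had both the brightest array (202.5) and the lowest level (10.72), and no value without it was computed. The AKR1B1 probe at base 1291 had r = 0.0919 with PTGES3 at base 1569 over 8 arrays, and 0.905 without cow 833. With PTGER4 at base 2723 these values were -0.063 and 0.897. The part of array brightness in the AKR1B1 difference was not tested.

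The other AKR1B1 probes gave smaller values. Those at bases 1118 and 1291 were lower in SCE by -0.46 each (exact permutation test, p = 0.057 for both) and that at base 599 by -0.20. At base 23 all 8 WBC arrays were at background. Several settings ended the call at base 1296. Its TREAT p was 0.065 without healthy cow 877, 0.083 with the processed signal scaled to the 75th percentile and 0.48 with all 16 arrays in 1 fit, in which the wider spread of the endometrium enters.

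Without cow 833, whose WBC array was the brightest, 5 of 29 probes passed TREAT without adjustment in WBC, where 1.45% of all probes passed (1.11% lower in SCE). All 5 were lower in SCE, and each had an adjusted p of 1. PTGER4 differed by -0.90 at base 2723 (TREAT p = 0.0040; exact permutation test, p = 0.057) and by -0.85 at base 2284 (TREAT p = 0.0069; exact permutation test, p = 0.029, the smallest that 3 cows against 4 can give). HPGD differed by -1.17 (TREAT p = 0.012; exact permutation test, p = 0.086). PTGES3 at base 1569 differed by -0.67 and AKR1B1 at base 1296 by -0.53 (TREAT p = 0.030 and 0.049; exact permutation tests, p = 0.057 and 0.029). With cow 833 these differences were -0.17, -0.14, -0.27, -0.23 and -0.59 in the same order. Without cow 833, the upstream probes of PTGER4 and PTGES3 were instead higher in SCE, by 0.42 at base 346 and 0.22 at base 616. HPGD at base 716 differed by -0.85. PTGS1 at base 625 was 0.33 higher, with every SCE cow above every healthy cow (TREAT p = 0.29, exact permutation test, p = 0.029). None of these further probes passed TREAT.

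Cow 833 itself was high at the PTGER4, PTGES3 and HPGD probes that passed without it, and the lowest of the 8 cows at AKR1B1 base 1296 (10.72). PTGER4 at base 2723 read 13.27 in its WBC, against 10.52, 10.27 and 10.16 in the other SCE cows and 10.76, 11.33, 11.56 and 11.21 in healthy cows. PTGES3 at base 1569 read 12.18, against 10.54, 10.57 and 10.14 in SCE and 10.68, 11.08, 11.41 and 11.16 in healthy cows. HPGD read 10.47, against 6.96, 7.50 and 6.17 in SCE and 8.51, 7.47, 7.79 and 8.42 in healthy cows. At these 3 probes cow 833 was the highest of the 8 cows. There the other SCE cows lay below every healthy cow for PTGER4 and PTGES3, and overlapped them for HPGD.

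The probes of PTGER4, PTGES3 and HPGD that passed without cow 833 followed the brightness of the WBC arrays, and probes of other members also varied with it. The correlation of level with the log2 median array signal over 8 arrays was 0.91 for PTGER4 at base 2723, 0.867 for PTGER4 at base 2284, 0.928 for PTGES3 at base 1569 and 0.772 for HPGD. Probes nearer the start of PTGER4 and PTGES3 ran the other way, with -0.666 for PTGER4 at base 346 and -0.939 for PTGES3 at base 616. The upstream probe of HPGD, at base 716, did not (r = 0.197), and cow 833 lay 1.34 above the median of the other WBC arrays there. The PTGER2 probes were also split, with 0.868 at base 1979 and -0.827 at base 620 (7 arrays). PTGES2 had -0.854 at base 1323 and -0.776 at base 511. PTGS2 had 0.881 at base 3314, where only 1 WBC array was well above background. At the upstream probes of PTGER4 and PTGES3 cow 833 lay 0.43 and 0.76 below the median of the other WBC arrays, and at the downstream probes 2.50 and 1.49 above it. The arrays were quantile-normalised, and the part of array brightness or RNA quality in the differences between SCE and healthy WBC was not tested.

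The upstream probes of both genes are shown because the tissue comparison also turns on them. That of PTGER4 lies at chr20:35926105-35926164 (minus strand), within 1 block of the genome, and that of PTGES3 at chr5:61345921-61347073 (plus strand), where a span of 1153 bases for a probe of 60 bases marks a probe that crosses a splice junction.
PTGER4 base 346: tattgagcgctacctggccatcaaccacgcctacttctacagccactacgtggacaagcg
PTGES3 base 616: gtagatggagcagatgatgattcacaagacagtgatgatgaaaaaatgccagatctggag

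**Figure D2:**
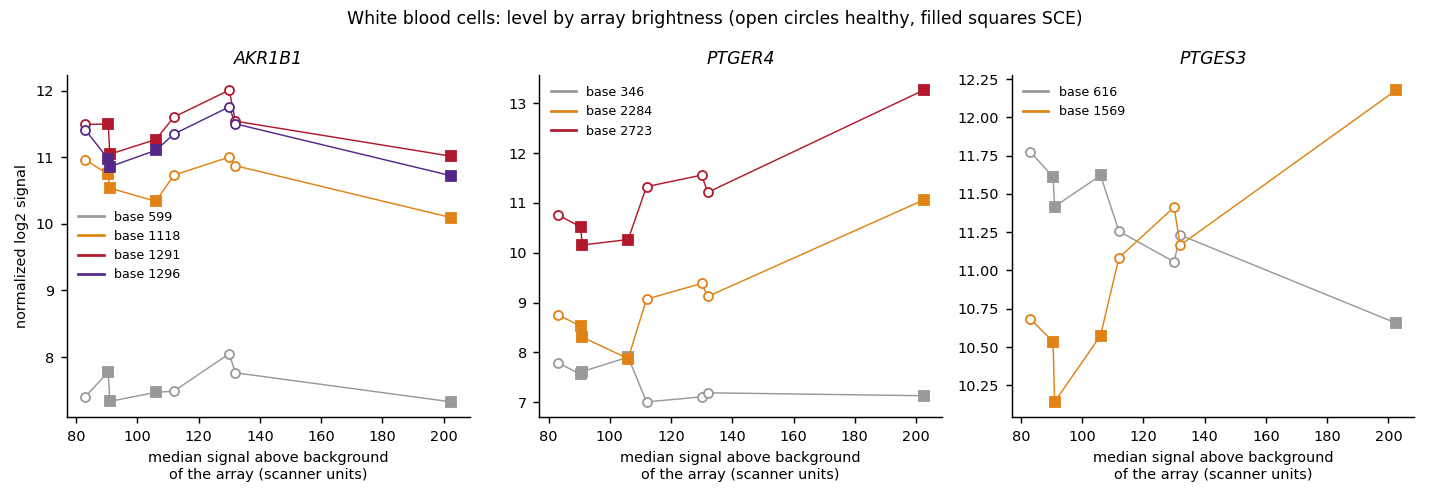
WBC levels of AKR1B1, PTGER4 and PTGES3 probes (log2 normalised intensity, vertical axis) against the median spot signal above background of the array (horizontal axis), with 1 point per array and the cow 833 array at the right, at 202.5. Downstream probes of PTGER4 and PTGES3 rose with array signal (r = 0.91 and 0.928), and the upstream probe of PTGES3 fell (r = -0.939). AKR1B1 at base 1296 had r = -0.127 over all arrays, with its lowest level in cow 833.

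The remaining members did not pass in WBC. PTGS1 differed by -0.21 (95% interval -0.81 to 0.39), PTGES by -0.03 (95% interval -0.49 to 0.43, without the outlier spot of cow 841) at base 623, PTGES2 by -0.11 (95% interval -0.52 to 0.30) and PTGER2 by -0.08 (95% interval -0.54 to 0.38). The pair of PTGES probes at base 797 gave -0.12 (95% interval -0.71 to 0.47) and -0.43 (95% interval -1.06 to 0.20). PTGS2 was not well above background on any healthy WBC array and was so on 1 SCE array, that of cow 833. Of all 29 probes, 26 had a 95% interval that included 0 and 23 had one within 1 of 0, so the WBC data bound changes more tightly than the endometrium data.

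Whether SCE acted differently in the 2 tissues was tested by an interaction term over all 16 arrays. It passed TREAT without adjustment for 0 of 29 probes, where 0.496% of all probes passed, and the smallest p of a member was 0.24. After adjustment 0 probes passed on the whole array.

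**Figure D3:**
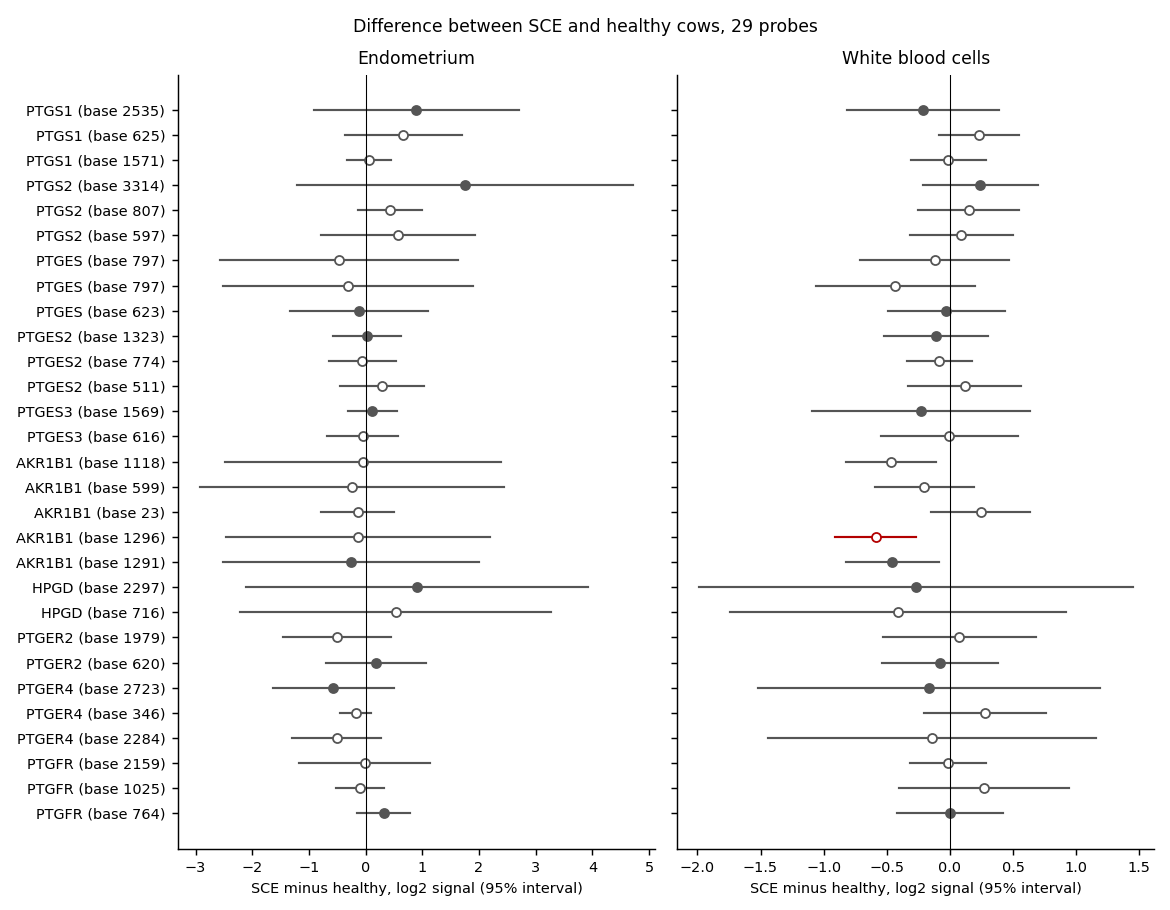
SCE minus healthy difference (log2, horizontal axis) of each of the 29 probes in the endometrium and in WBC, with 95% intervals; the panels have separate horizontal scales. Filled points are the brightest probe of a gene, and red marks the only probe past TREAT without adjustment, AKR1B1 at base 1296 in WBC (-0.59).

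Between tissues the members differed widely. Of 29 probes, 10 were higher in the endometrium after adjustment (34.5%, beside 22.7% of all 46594 probes) and 3 were higher in WBC (10.3%, beside 31.2% of all probes). The 10 belonged to AKR1B1, PTGES, PTGS2, HPGD and PTGES3, and the 3 to PTGES2, PTGER2 and PTGER4. PTGS1 and PTGFR had no called probe. The balance depended on the scaling. With each tissue normalised separately, 16 probes were higher in the endometrium (41.3% of all probes) and 1 in WBC (10.8% of all probes). The median over all probes was -0.16 in the main setting, 0.35 with separate normalisation and -0.40 with the processed signal. Several differences, including those of the probes called higher in WBC, are also given relative to that median, with their range over 4 scalings.

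AKR1B1 had the largest difference. At base 1291 it averaged 15.66 ± 1.52 in the endometrium and 11.43 ± 0.32 in WBC (SD, n = 8 each). Every endometrium array lay above every WBC array. The difference was 4.23 ± 0.52 (SE; adjusted p = 4.6e-06), or 18.7-fold, and 4.19 to 4.51 relative to the median. The probes at bases 599, 1118 and 1296 gave 3.48, 4.09 and 4.16. The probe at base 23, not well above background in WBC, was at least 1.82-fold higher in the main setting. Over the 4 scalings its difference was 0.70 to 2.90 relative to the median.

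PTGS2 was higher in the endometrium of all 8 cows. At base 3314 the endometrium ranged from 6.99 to 13.80 and WBC from 5.24 to 6.27. In healthy cows, whose WBC arrays were all at background, it was at least 5.8-fold higher in the endometrium. The fitted difference was 3.62 ± 0.69 (SE; adjusted p = 0.00035) and lay between 3.17 and 5.98 relative to the median. The probes at bases 597 and 807 were well above background on at most 2 of 8 arrays in either tissue.

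HPGD averaged 11.42 ± 2.09 in the endometrium and 7.91 ± 1.28 in WBC (SD, n = 8 each). It was higher in the endometrium of 6 of 8 cows. The exceptions were healthy cow 841 (7.83 and 8.51) and SCE cow 833 (9.49 and 10.47). The difference was 3.51 ± 0.81 (SE; adjusted p = 0.0019) at base 2297, and 1.59 at base 716 (adjusted p = 0.089).

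PTGES gave different results at different probes. The pair at base 797, at chr11:103800389-103800448 on the minus strand, was higher in the endometrium of all 8 cows, by 3.48 ± 0.50 and 3.65 ± 0.53 (SE; adjusted p = 2.6e-05 for both). The probe at base 623, further upstream (chr11:103800563-103800622), differed by 0.24 (adjusted p = 0.77) and was higher in the endometrium of 3 of 7 cows. The pair at base 797 differ from each other at 2 of 60 bases, A10C and A59C, counted from the 5′ end of the probe. The first 30 bases of each are shown, with position 10 in capitals.
PTGES base 797, first probe: ttttggaacAtaacgaccttctgaatccag
PTGES base 797, second probe: ttttggaacCtaacgaccttctgaatccag
The pair gave nearly the same tissue difference, 3.48 and 3.65. Across cows within the endometrium the probe at base 623 followed both of them (r = 0.98 and 0.979 over 8 arrays).

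PTGES3 showed the same divide between probes. At base 1569 it averaged 13.54 ± 0.25 in the endometrium and 10.97 ± 0.63 in WBC (SD, n = 8 each), a difference of 2.56 ± 0.24 (SE; adjusted p = 2.6e-07). At base 616 the difference was -0.09 (adjusted p = 0.98). In WBC the levels of the 2 probes ran against each other over the arrays (r = -0.872), whereas in the endometrium they rose together (r = 0.77).

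The probes called higher in WBC were each the most upstream of their gene. PTGER4 at base 346 read 7.01 to 7.91 in WBC and was not well above background on any endometrium array. In the main setting it was at least 2.84-fold higher in WBC. Over the 4 scalings its difference was -2.97 to -0.95 relative to the median over all probes. PTGER4 at bases 2284 and 2723 differed by -0.89 and -0.76 (adjusted p = 0.10 and 0.22). With the cow as a block, which pairs the 2 arrays of 1 animal, both were called (adjusted p = 0.019 and 0.039). PTGER2 at base 620 differed by -0.92 (adjusted p = 0.0083), with only 4 endometrium and 7 WBC values, and lost its call with the block (adjusted p = 0.22). Relative to the median its difference was -0.76 to -0.48. PTGES2 at base 511 differed by -0.68 (adjusted p = 0.047, and 0.061 with the block), while its probes at bases 774 and 1323 differed by -0.04 and -0.45. With each tissue normalised separately the probe at base 511 differed by 0.05. Relative to the median its difference was -0.68 to -0.31.

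**Figure D4:**
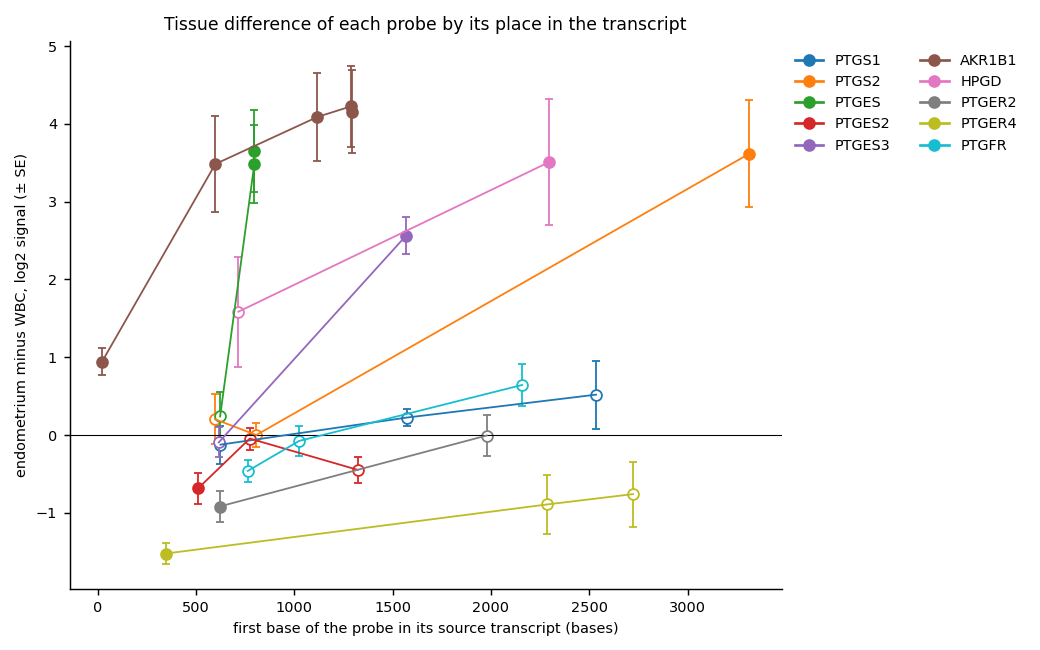
Endometrium minus WBC difference (log2, vertical axis, ± SE) of each probe by its start in the transcript (bases, horizontal axis). The probes of PTGFR at base 1025 and AKR1B1 at base 23 are numbered in other transcript records than the rest of their genes. Filled points passed adjusted TREAT. In 7 of the 10 genes called and uncalled probes stand side by side, such as PTGES3 with 2.56 at base 1569 and -0.09 at base 616.

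PTGS1 and PTGFR had no called probe between tissues. The 3 probes of PTGS1 differed by 0.52, 0.23 and -0.12 at bases 2535, 1571 and 625. Those of PTGFR differed by 0.64, -0.07 and -0.46 at bases 2159, 1025 and 764. Base 1025 of PTGFR is counted in another transcript record than the other bases. On the genome (plus strand) that probe starts at chr3:70642266, downstream of the probe at base 2159, which starts at chr3:70640620. The probes of PTGFR were well above background on 2, 3 and 2 endometrium arrays and on 0, 2 and 5 WBC arrays, so its levels were near the limit of the assay in both tissues.

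Within the endometrium the cows differed from each other far more in AKR1B1, HPGD and PTGS2 than in most genes. These values are a description over 8 cows. PTGS2 spanned 112-fold from the lowest cow to the highest, HPGD 86.5-fold and AKR1B1 20.7-fold. Their SD within groups exceeded that of 99.8%, 99.8% and 99.1% of 27621 well measured probes, whose median SD was 0.33. PTGES spanned 16.2-fold at its second probe at base 797. PTGES3 and PTGES2 spanned 1.52-fold and 2.21-fold. In WBC the same AKR1B1 probe spanned 1.99-fold.

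AKR1B1 read 13.53, 14.13, 15.15, 15.35, 15.65, 15.96, 17.60 and 17.90 in the endometrium of cows 833, 850, 877, 718, 846, 841, 836 and 883. SCE and healthy cows were mixed along this order, and both the 2 lowest and the 2 highest values came from 1 SCE and 1 healthy cow. The probes at bases 599, 1118 and 1296 put the cows in the same order (rho = 1.0 against base 1291). PTGES at base 623 read 11.24, 11.08, 9.79, 9.69, 9.79, 10.40, 9.16 and 9.09 in the same cows, so the cows lowest in the prostaglandin F synthase were the highest in the prostaglandin E synthase.

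Over the 8 cows AKR1B1 and PTGES had r = -0.888 (permutation p = 0.0052) and rho = -0.786 (permutation p = 0.028). Among 38 pairs of members computed in the 2 tissues, the adjusted p was 0.099, so this pair missed the threshold. The value was -0.726 without the 2 cows farthest from the median, -0.902 within status and -0.832 without cow 833. The pair of PTGES probes at base 797 gave -0.898 and -0.923. HPGD also ran against PTGES, with r = -0.736 (permutation p = 0.038, adjusted p = 0.17) and rho = -0.881 (permutation p = 0.0072), and -0.887 without the 2 farthest cows.

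In WBC only 1 of the 38 pairs passed after adjustment. PTGES3 and PTGER4 had r = 0.974 (permutation p = 9.9e-05, adjusted p = 0.0038) and rho = 0.952 (permutation p = 0.0011), with 0.962 without cow 833 and 0.958 without the 2 farthest cows. Both probes followed array brightness, as given above. In the endometrium the same pair had r = 0.226 (permutation p = 0.57, adjusted p = 0.92).

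**Figure D5:**
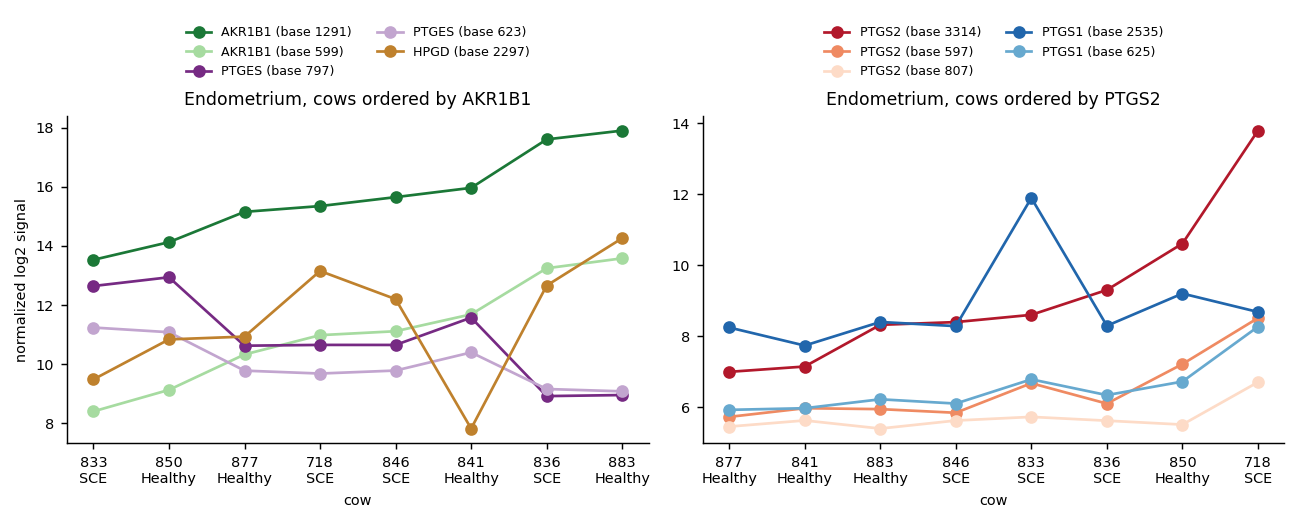
Endometrial levels (log2 normalised intensity, vertical axis) by cow. Left, AKR1B1, PTGES and HPGD with cows in the order of AKR1B1, from 13.53 to 17.90; PTGES fell along this order (r = -0.888). Right, PTGS2 and PTGS1 with cows in the order of PTGS2; SCE cow 718 is highest in PTGS2, at 13.80.

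PTGS2 stood out in the endometrium of SCE cow 718. Its 3 probes read 8.51, 6.70 and 13.80 there, from base 597 to base 3314, and cow 718 was the highest of the 8 cows at each. The PTGS1 probe at base 625 was also highest in cow 718, at 8.27 against 5.92 to 6.78 in the others. This probe followed PTGS2 at base 3314 (r = 0.947, and 0.787 without cow 718) and PTGS2 at base 597 (r = 0.971, and 0.901 without cow 718) over 8 arrays. The PTGS1 probe was well above background on only 3 of these arrays. PTGS2 at base 597 was so on 2, those of cows 850 and 718. In WBC the same pairs had r = -0.342 and 0.143, with these PTGS2 probes well above background on 1 and 2 arrays. With the PTGS1 probe at base 2535, that at base 625 had r = 0.29 over all 8 endometrium arrays, rho = 0.881, and r = 0.809 without cow 718. The summed level of the cytotoxic cell markers was also highest in the endometrium of cow 718, at 11.67 (10.81 to 11.38 in the others), and its neutrophil markers, at 12.18, were second to those of cow 833, at 13.01. The part of leukocytes in its PTGS2 level was not tested. The PTGS1 probe lies at chr11:96372317-96372376 and the PTGS2 probe at chr16:65516536-65516595, both on the minus strand.
PTGS1 base 625: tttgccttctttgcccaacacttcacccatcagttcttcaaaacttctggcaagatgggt
PTGS2 base 597: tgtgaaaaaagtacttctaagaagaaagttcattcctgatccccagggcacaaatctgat
The 2 sequences are shown because their genes code for related enzymes, and no alignment of them without gaps matched at 36 bases or more. That comparison covered only these 2 probes and not the rest of the PTGS2 transcript. Whether the PTGS1 probe also reads PTGS2 RNA was not tested.

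The genes whose endometrial levels were most like those of each member are given as a description over 8 arrays, from 20638 probes compared. For AKR1B1 these were YIPF1 (r = 0.995), SLC25A15 (0.986) and GRHL1 (0.984). For PTGS2 they were BTG2 (0.975), NR4A2 (0.974) and EIF1 (0.961), of which BTG2 and NR4A2 are early response genes. For PTGES they were SCAF4 (0.982), TRMT11 (0.975) and PLEKHO1 (0.974), and for HPGD they were BCAT1 (0.96), ACSS1 (0.951) and SCARA5 (0.95). In WBC, PTGES3 was most like KLHDC2, CUL3 and MORF4L2 (0.996 each). With so few arrays, many probes reach such values.

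Of 40 further genes of the pathway, 35 were measured. They cover release of arachidonic acid, other terminal synthases, transport and inactivation, other prostanoid receptors and the leukotriene branch. Between SCE and healthy cows 0 of 35 passed TREAT without adjustment in the endometrium (0.453% of all probes) and 0 in WBC (0.122% of all probes). Their median difference was 0.10 in the endometrium and 0.02 in WBC, beside medians over all probes of 0.00 and -0.01.

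Between tissues 12 of the 35 were higher in the endometrium (22.7% of all probes) and 14 in WBC (31.2% of all probes). PLA2G10, a secreted phospholipase that releases arachidonic acid, stayed at background in all 8 WBC samples and was at least 201-fold higher in the endometrium (adjusted p = 2.5e-07). PTGDS, the lipocalin-type prostaglandin D synthase, differed by 6.57 (adjusted p = 4.8e-13), and in healthy cows, whose WBC was at background, it was at least 100-fold higher. AKR1C4, an aldo-keto reductase, differed by 1.96 (adjusted p = 0.012).

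The largest differences towards WBC were in other branches. ALOX15, a lipoxygenase abundant in eosinophils, differed by -7.85 (adjusted p = 1.6e-13). ALOX5AP, which presents arachidonic acid to 5-lipoxygenase, differed by -5.49 and TBXA2R, the thromboxane receptor of platelets, by -4.57. Of the 10 leukotriene genes, 8 were higher in WBC (31.2% of all probes) and 2 in the endometrium (22.7% of all probes). Of the transporters, SLCO2A1, which takes prostaglandins up, was higher in the endometrium (1.39, adjusted p = 0.0016), and ABCC4, which exports them, was higher in WBC (-3.41, adjusted p = 5.1e-09).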

How the data were processed

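RNA of WBC and endometrium from 8 cows was measured on 16 one-colour Agilent arrays, and the sample titles gave the tissue, health status and animal of each array. The authors read spot intensities with Agilent Feature Extraction 10.10.1.1, per the labels. They deposited raw intensities and, in a further file, normalized intensities. The latter differed from quantile-normalized scanner medians by a median of 0.0516%.

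Median spot intensities were used as scanned, with no subtraction of background. After control spots and outlier spots had been dropped, log2 values were quantile-normalized over 16 arrays and spots of 1 probe were averaged. Probes were named by the array's own gene names, and all member probes matched RefSeq by accession. Coordinates and sequences are those of the array files (HGSC Btau_3.1), and gene models were not analysed here. SCE and healthy cows were compared per tissue using the treat function of limma 3.58.1 under R 4.3.3 (1.2-fold, p at 0.05), and tissues in 1 model of 4 groups, with Benjamini-Hochberg adjustment over all probes. TREAT was tested on simulated data. Exact permutation tests were two-sided, and 4 cows against 4 allow no p below 0.029. P-values for correlations came from exact pairings of 8 cows. The number of arrays limits the precision. A fold against a group at background is a lower bound in the main setting only. It was taken against the higher of the dim probe and the lowest signal well above background on each array. Other scalings can give smaller differences.

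The rule for named genes takes every probe of the 10 members, describes a gene by its brightest probe over the 16 arrays, and names further pathway genes where they pass TREAT for SCE and, between tissues, the 3 largest rises and falls. SLCO2A1 and ABCC4 were named after their values were seen. The members, lists and tests were chosen with earlier results of these data known.

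WBC and endometrium arrays pair by animal. The correlation of a pair's deviations from the group means over 23892 probes was -0.33 in cow 833 and -0.14 to 0.14 in the others. Alternatives were normalization within tissue, the processed signal at the 75th percentile, normexp with an offset of 50, the authors' values, means of a gene's probes, TREAT thresholds of 0 and 1.1-fold, the cow or the slide row as a block, 1 fit of all 16 arrays, a trended and robust prior variance, a filter on probes well above background, and leaving out each cow. Tools were the data.table package, version 1.17.8, Python 3.11.15, pandas 2.3.3, numpy 2.4.6 and matplotlib 3.10.9.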

Additional observations from a re-analysis of the deposited data

Results flagged for a closer look

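In 5 of 36 groups of 4 cows tested, 1 cow lay far from the others of its group at the brightest probe of a gene. Chance marks about 1 in 20 groups. PTGS1 in WBC of healthy cow 877 read 9.10, with the nearest cow at 8.24. PTGS1 in the endometrium of SCE cow 833 read 11.90, with the nearest at 8.68. PTGS2 in WBC of SCE cow 833 read 6.27, with the nearest at 5.48, where only the array of cow 833 was well above background. PTGS2 in the endometrium of SCE cow 718 read 13.80, with the nearest at 9.30. PTGER4 in WBC of SCE cow 833 read 13.27, with the nearest at 10.52.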

How the results depend on the processing

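In the endometrium the count of members past TREAT for SCE stayed at 0 with and without adjustment under all alternatives run, and in WBC the adjusted count also stayed at 0. The unadjusted count in WBC, 1 probe in the main setting, was 0 with the processed signal, with the mean of a gene's probes and with all 16 arrays in 1 fit, 3 with TREAT thresholds of 0 and of 1.1-fold, and 0 to 5 when each cow was left out (5 without cow 833, 0 without cow 877). Between tissues, the 10 probes higher in the endometrium became 16 with each tissue normalized separately and 5 genes with the mean of a gene's probes. The 3 probes higher in WBC became 1 with separate normalization, with normexp and with the mean of a gene's probes, and 6 with a TREAT threshold of 0. Leaving out each cow gave 10 to 11 and 2 to 4 probes. With the cow as a replicate block the counts stayed at 10 and 3, but of the 3 calls higher in WBC only 1, PTGER4 at base 346, was kept. PTGER4 at bases 2723 and 2284 gained a call (adjusted p = 0.039 and 0.019), and PTGER2 at base 620 and PTGES2 at base 511 lost it (adjusted p = 0.22 and 0.061). Causes were not tested. No result changed its direction past the threshold. Leaving out cow 883 left no healthy endometrium value for PTGER2 at base 620. Signal near background limits PTGFR in both tissues and PTGS2 in WBC.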

Other observations

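In the circulating cells, 2 of 68 measured marker genes passed TREAT without adjustment between SCE and healthy cows, where 0.122% of all probes passed. CSF1R, the receptor through which macrophage growth factor acts on monocytes, was 0.64 higher in SCE, and CPA3, a mast cell protease, was 0.89 higher. Their adjusted p was 1. The other measured markers of the monocyte and mast cell lists did not pass. CPA3 was well above background on only 3 of 8 WBC arrays. Only 2 of the 6 listed markers of mast cells and eosinophils were measured, and the other, KIT, differed by -0.33.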
